A study of Homo sapiens with 6 samples.

Results

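The integrin and laminin genes of the RNA-Seq table were taken by symbol: every row named as an integrin α subunit (ITGA followed by a number, 2B or a letter), an integrin β subunit (ITGB followed by a digit) or a laminin α, β or γ chain (LAMA, LAMB or LAMC followed by a digit). This gave 38 of the 20824 genes, 18 α subunits, 8 β subunits and 12 laminin chains. The cells were 21NT, a human breast line used as a model of ductal carcinoma in situ, stably transfected with pcDNA3.1 that was empty (EV) or carried TBX3iso1 or TBX3iso2, the splice forms of the T-box transcription factor TBX3. All 3 lines carried the vector, were kept under G418, were grown in the same medium with insulin, EGF, hydrocortisone and serum, and were harvested before confluence. Each was a pool of G418-resistant cells and was sequenced in 2 libraries, so its libraries share 1 transfection. The sources used here do not say whether they came from separate cultures, and the p-values then measure only the spread between these libraries, which may be technical. The question of the design was how transcript levels of each isoform line differed from EV.

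Integrins are cell surface receptors made of 1 α and 1 β subunit, and the pair decides which matrix protein is bound. Laminins are secreted trimers of 1 α, 1 β and 1 γ chain and are the main adhesive proteins of basement membranes. In the breast, the hemidesmosome receptor α6β4 and the receptor α3β1 hold epithelial cells to laminin-332 and laminin-511, while αvβ6 binds fibronectin, tenascin and the latent form of TGF-β.

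The libraries held 43176600 to 54512400 alignments. Levels are RPKM, reads scaled to transcript length and library alignments, and the table gives no read counts. The annotation behind the lengths is not given, so comparisons of level between genes depend on lengths that could not be checked. TBX3 measured 8.52 and 8.24 RPKM in EV, 13.1 and 11.4 in TBX3iso1 and 17.5 and 15.5 in TBX3iso2, so both isoform lines lay above EV, by 1.45-fold and 1.96-fold on the RPKM + 0.1 scale. Epithelial markers were present, with 6 of 7 at a mean of 0.5 RPKM or more and a summed level of 1809 to 2342 RPKM, while KRT14 was near 0. Of the markers of other cell types, 1 of 6 fibroblast genes reached that level (COL1A1; summed level 4.60 to 4.86 in EV and 7.14 to 8.69 in the isoform lines), as did 1 of 5 endothelial genes (PECAM1; 7.41 to 7.77 against 1.32 to 1.49), 2 of 5 leukocyte genes (CD14 and CD68; 52.7 to 54.9 against 36.3 to 36.8, with PTPRC and CD3E near 0) and 1 of 4 smooth muscle genes (ACTA2; 3.97 to 4.38 against 0.712 to 1.34). The part of these markers in the integrin and laminin values was not tested, and in bulk RNA fewer cells of a type and less RNA per cell cannot be told apart.

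Of the 38 genes, 25 averaged 0.5 RPKM or more across the 6 libraries and were tested with limma on log2(RPKM + 0.1) together with all other genes that passed. A gene is said to rise or fall below where its Benjamini-Hochberg adjusted p was under 0.05 and its fold change over 1.5. In TBX3iso1, 9 of the 25 rose and 4 fell against EV. Among all 12805 genes tested, 7.46% rose and 14.1% fell, 21.5% in either direction, against 13 of the 25 integrin and laminin genes. In TBX3iso2, 8 rose and 3 fell, 11 in all, where 8.94% of all genes rose and 12.3% fell, 21.2% in either direction. The median log2 fold change of the 25 genes was 0.17 in TBX3iso1 and -0.065 in TBX3iso2, and that of all genes -0.051 and -0.002. Rises and falls thus stood side by side in both lines. Both comparisons use the same EV libraries. ITGA4 passed the filter through the isoform lines and ITGA7 through EV, so a difference of these 2 was favoured by the filter. Quantile normalization shifted the log2 fold changes of single genes in TBX3iso1 by a median of 0.108, and the median of all genes went from -0.051 to 0.023. The share of calls that were higher went from 34.6% to 49.0%, and 9 integrin and laminin genes then rose and 2 fell.

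**Figure D1:**
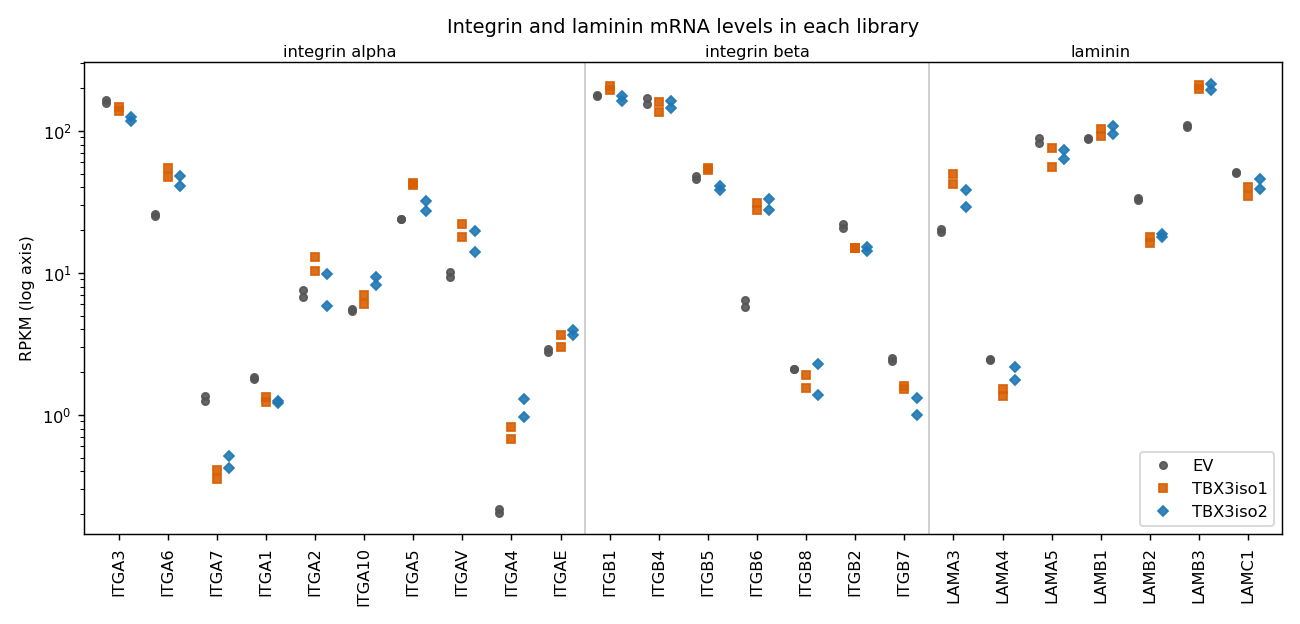
RPKM on a log axis of 24 integrin and laminin genes that averaged 0.5 RPKM or more; each point is 1 library (2 per line). ITGB6 lies at 5.78 to 6.49 RPKM in EV and at 27.9 to 32.9 in both isoform lines, while ITGB1, ITGB4 and ITGA3 stay between 117 and 209 RPKM in all 6 libraries.

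The second library of each line was lower than the first for 20 of the 25 genes in EV, 21 in TBX3iso1 and 20 in TBX3iso2, by a median of 0.046, 0.156 and 0.194 on the log2 scale. All genes tested had a median difference between 0.002 and -0.027. The same direction was found in the 2951 genes whose longest transcript exceeds 5574 bases, where the second library differed by a median log2 of -0.042, -0.136 and -0.207. Integrin and laminin mRNAs are long, and 14 of the 25 were among them. Against EV, the 2951 long genes had a median log2 difference of -0.169 in TBX3iso1 and -0.109 in TBX3iso2. The other genes with a known length had -0.002 and 0.039. The part of transcript length in the differences between lines was not tested. Integrin and laminin calls against EV that were lost without 1 library are named where they occur. For the partner lists below, only counts were followed with a library left out, so a call of a partner gene may rest on 1 library.

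LAMB3 and LAMA3, chains of the anchoring epithelial laminin-332, rose in both isoform lines. LAMB3, the β3 chain (chromosome 1, 209788215 to 209825770), was at 109 and 107 RPKM in EV, 198 and 210 in TBX3iso1, and 216 and 194 in TBX3iso2. Both isoform lines lay well above EV and overlapped each other. The log2 fold change was 0.92 ± 0.09 in each (limma adjusted p = 0.000208 and 0.000204), and the difference between the isoform lines was 0.005 with a 95% interval of -0.20 to 0.21. LAMA3, the α3 chain (chromosome 18, 21269417 to 21536186), had a lower level than LAMB3, at 20.4 and 19.5 RPKM in EV, 50.1 and 42.1 in TBX3iso1, and 38.5 and 28.9 in TBX3iso2. EV was lowest and TBX3iso1 highest, with no overlap, although the TBX3iso2 libraries lay far apart. LAMA3 rose by 1.20 ± 0.14 (limma adjusted p = 0.000493) in TBX3iso1 and by 0.74 ± 0.14 (adjusted p = 0.00421) in TBX3iso2, all on the log2 scale. Without the first TBX3iso2 library the latter was 0.53 and LAMA3 was no longer called.

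The ratio of LAMA3 to LAMB3 mRNA was 0.185 ± 0.002 (SD, n = 2) in EV, 0.227 ± 0.037 in TBX3iso1 and 0.164 ± 0.021 in TBX3iso2.

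Other laminin chains did not follow. LAMB2, the β2 chain (chromosome 3, 49158547 to 49170551), fell in both lines: it measured 33.8 and 32.7 RPKM in EV, 17.8 and 16.1 in TBX3iso1, and 18.8 and 18.0 in TBX3iso2. Every isoform library lay far below both EV libraries. Its log2 fold change was -0.97 ± 0.08 (limma adjusted p = 8.82e-05) and -0.85 ± 0.08 (adjusted p = 0.000161). LAMA4, the α4 chain of endothelial and mesenchymal laminins, fell in TBX3iso1 only by the thresholds, with 2.49 and 2.42 RPKM in EV, 1.53 and 1.37 in TBX3iso1, and 2.17 and 1.76 in TBX3iso2. The log2 fold change was -0.73 ± 0.14 (adjusted p = 0.00447) and -0.32 ± 0.14 (adjusted p = 0.0962). The difference between the isoform lines, 0.41 (adjusted p = 0.0908), did not pass, and the value in TBX3iso1 was not called with quantile normalization (-0.51) or a pseudocount of 1 RPKM (-0.50).

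The chains of laminin-511, the widespread epithelial laminin, were not called in either line. LAMA5, its α5 chain, was at 88.9 and 82.4 RPKM in EV, 76.5 and 55.4 in TBX3iso1, and 73.8 and 63.2 in TBX3iso2. The isoform libraries were all below EV, with a log2 fold change of -0.39 ± 0.15 (adjusted p = 0.0665) and -0.33 ± 0.15 (adjusted p = 0.115), and without the first TBX3iso1 library LAMA5 was called lower in that line (-0.63). LAMB1, its β1 chain, was at 89.8 and 87.5 RPKM in EV, 103 and 92.6 in TBX3iso1, and 109 and 95.5 in TBX3iso2, slightly above EV in every isoform library (0.14 and 0.20, adjusted p = 0.251 and 0.119). LAMC1, the γ1 chain of most laminins, was at 51.6 and 50.7 RPKM in EV, 40.5 and 34.9 in TBX3iso1, and 45.7 and 38.9 in TBX3iso2. All 4 isoform values lay below EV, and the log2 fold change of -0.44 ± 0.10 (adjusted p = 0.0112) in TBX3iso1 was under the 1.5-fold threshold.

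The make-up of the α and β chains therefore differed between lines. LAMA3 took 18.4% ± 0.31 (SD, n = 2) of the summed α chain RPKM in EV, 40.5% ± 2.4 in TBX3iso1 and 32.1% ± 2.0 in TBX3iso2, and LAMA5 correspondingly 78.8% ± 0.36, 57.4% ± 2.6 and 65.5% ± 2.0. LAMA5 stayed the leading α chain in all 6 libraries. Among the β chains, LAMB3 went from 47.0% ± 0.01 to 64.0% ± 2.7 and 63.0% ± 0.15, and LAMB2 from 14.4% ± 0.06 to 5.32% ± 0.37 and 5.66% ± 0.27. The EV libraries lay outside the range of the isoform libraries for each of these shares.

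**Figure D2:**
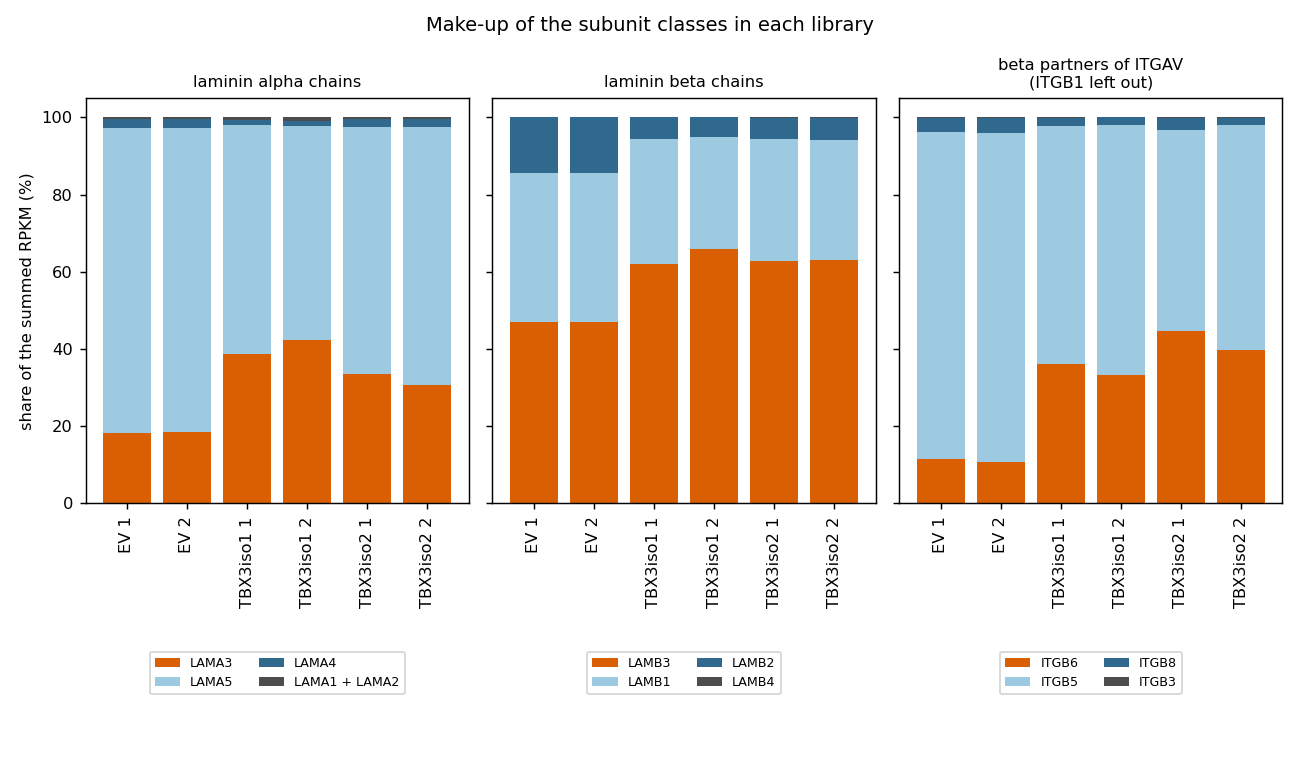
Share of the summed RPKM (%, axis from 0) of the laminin α and β chains and of the β subunits that pair with ITGAV, in each of the 6 libraries; ITGB1 is left out of the last panel because it pairs with many α subunits. LAMA3, LAMB3 and ITGB6 take larger shares in all isoform libraries than in either EV library.

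ITGB6 had the clearest rise of the 25 genes. Its β6 protein pairs only with αv and is restricted to epithelia, where it is known from wound healing and carcinoma. ITGB6 (chromosome 2, 160956178 to 161056824) measured 6.49 and 5.78 RPKM in EV, 31.1 and 27.9 in TBX3iso1, and 32.9 and 27.9 in TBX3iso2. The isoform lines overlapped each other and lay far above EV. Its log2 fold change was 2.25 ± 0.11 (limma adjusted p = 9.73e-06) and 2.29 ± 0.11 (adjusted p = 1e-05), a 4.75-fold and 4.89-fold difference on the RPKM + 0.1 scale. Between the isoform lines the difference was 0.039 with a 95% interval of -0.21 to 0.29, and its sign changed with the scaling.

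ITGAV, the αv subunit that pairs with β1, β3, β5, β6 and β8 and recognises the RGD motif, also rose. It was at 10.2 and 9.36 RPKM in EV, 22.1 and 18.0 in TBX3iso1, and 19.9 and 14.1 in TBX3iso2. All isoform libraries were above EV, although TBX3iso1 and TBX3iso2 overlapped. The log2 fold change was 1.02 ± 0.17 (limma adjusted p = 0.00211) and 0.77 ± 0.17 (adjusted p = 0.00727); the latter was 0.52 without the first TBX3iso2 library and 0.71 without the second EV library, and was called in neither case.

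The other αv partners did not rise. ITGB5, the β5 subunit of the vitronectin receptor αvβ5, was at 48.3 and 45.8 RPKM in EV, 53.3 and 54.5 in TBX3iso1, and 38.4 and 40.7 in TBX3iso2. TBX3iso1 was thus above and TBX3iso2 below EV, with log2 fold changes of 0.20 ± 0.07 (adjusted p = 0.0583) and -0.25 ± 0.07 (adjusted p = 0.0243), neither over 1.5-fold. ITGB8, another TGF-β binding partner, was between 1.39 and 2.28 RPKM in all libraries, and ITGB3 did not exceed 0.0701. Of the summed RPKM of ITGB3, ITGB5, ITGB6 and ITGB8, ITGB6 took 11.1% ± 0.46 (SD, n = 2) in EV, 34.6% ± 2.0 in TBX3iso1 and 42.3% ± 3.4 in TBX3iso2, while ITGB5 went from 85.0% ± 0.27 to 63.3% ± 2.3 and 55.1% ± 4.2. The ratio of ITGB6 to ITGAV mRNA passed from below to above 1, at 0.627 ± 0.012, 1.48 ± 0.10 and 1.82 ± 0.23. Its place relative to 1 depends on the transcript lengths used, while its difference between lines does not.

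ITGA6, the laminin-binding α6 subunit (chromosome 2, 173292082 to 173371187), rose in both lines. It was at 26.0 and 25.4 RPKM in EV, 54.7 and 47.0 in TBX3iso1, and 48.1 and 40.7 in TBX3iso2, with every isoform library above EV. The log2 fold change was 0.98 ± 0.11 (limma adjusted p = 0.000344) and 0.78 ± 0.11 (adjusted p = 0.000912). Its hemidesmosome partner ITGB4 was far more abundant, at 171 and 154 RPKM in EV, 159 and 137 in TBX3iso1, and 162 and 146 in TBX3iso2, and the 3 lines overlapped. ITGB4 had a log2 fold change of -0.14 (95% interval -0.39 to 0.11) and -0.077 (-0.33 to 0.17). The ratio of ITGA6 to ITGB4 mRNA was 0.159 ± 0.009 in EV, 0.344 ± 0.0003 in TBX3iso1 and 0.288 ± 0.013 in TBX3iso2.

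ITGA3, the α3 subunit and the most abundant α mRNA, was at 165 and 156 RPKM in EV, 147 and 137 in TBX3iso1, and 126 and 117 in TBX3iso2. The lines did not overlap and stood in the order EV, TBX3iso1, TBX3iso2. The log2 fold change was -0.18 ± 0.09 (limma adjusted p = 0.131) and -0.40 ± 0.09 (adjusted p = 0.00725), under 1.5-fold in both. ITGA3 took 67.1% ± 0.41 (SD, n = 2) of the summed α subunit RPKM in EV and 50.9% ± 0.81 and 51.6% ± 2.3 in the isoform lines, and ITGA6 10.7% ± 0.15, 18.1% ± 0.72 and 18.8% ± 0.36. ITGA7, a laminin receptor best known from muscle, fell from 1.25 and 1.36 RPKM in EV to 0.411 and 0.354 in TBX3iso1 and 0.424 and 0.513 in TBX3iso2. All isoform libraries lay below EV, with log2 fold changes of -1.54 ± 0.17 (adjusted p = 0.000401) and -1.31 ± 0.17 (adjusted p = 0.000807).

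ITGB1, the common β1 partner of 12 of the α subunits, was the most abundant integrin mRNA. It was at 180 and 177 RPKM in EV, 209 and 193 in TBX3iso1, and 178 and 164 in TBX3iso2. TBX3iso1 lay just above EV and TBX3iso2 overlapped it, and the log2 fold changes of 0.17 (95% interval -0.033 to 0.38) and -0.065 (-0.27 to 0.14) were not called. ITGA5, which with β1 forms the main fibronectin receptor, was at 23.9 RPKM in both EV libraries, 43.1 and 41.8 in TBX3iso1, and 32.3 and 27.1 in TBX3iso2. Its order was EV, TBX3iso2, TBX3iso1 without overlap. It rose in TBX3iso1 (log2 0.83 ± 0.09, limma adjusted p = 0.000405) and was not called in TBX3iso2 (0.31 ± 0.09, adjusted p = 0.0289).

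Among the collagen receptors, ITGA2, the α2 subunit of the epithelial collagen receptor, was at 7.57 and 6.81 RPKM in EV, 12.9 and 10.4 in TBX3iso1, and 9.83 and 5.83 in TBX3iso2. The TBX3iso2 libraries lay on either side of EV. ITGA2 rose in TBX3iso1 by 0.68 ± 0.22 on the log2 scale (limma adjusted p = 0.0399), a call that was lost without either EV library (0.76 and 0.61) or without the first TBX3iso1 library (0.52), and also with no filter or no trend in the fit. In TBX3iso2 its log2 fold change was 0.076, and -0.30 without the first TBX3iso2 library. ITGA10, an α subunit known from cartilage, showed the opposite order. ITGA10 was at 5.43 and 5.57 RPKM in EV, 6.99 and 6.06 in TBX3iso1, and 9.39 and 8.20 in TBX3iso2, with no overlap between lines. It rose in TBX3iso2 (0.66 ± 0.11, adjusted p = 0.00203; 0.57 and not called without the first TBX3iso2 library) and was not called in TBX3iso1 (0.24 ± 0.11, adjusted p = 0.104). ITGA1, which lies 30.1 kb upstream of ITGA2 on chromosome 5, was between 1.79 and 1.86 RPKM in EV and between 1.21 and 1.33 in the isoform lines, with log2 fold changes of -0.48 and -0.53 that were under 1.5-fold.

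Of the integrins best known from leukocytes, ITGA4 rose and ITGB7 fell in both isoform lines. ITGA4, the α4 subunit that binds VCAM1 and fibronectin, was at 0.204 and 0.217 RPKM in EV, 0.822 and 0.681 in TBX3iso1, and 1.30 and 0.970 in TBX3iso2. The lines stood apart in that order. On the log2(RPKM + 0.1) scale, which understates the change of so low a gene, it rose by 1.45 ± 0.20 (limma adjusted p = 0.000937) and 1.98 ± 0.20 (adjusted p = 0.000223); with a pseudocount of 1 RPKM the value in TBX3iso1 was 0.53 and was not called. ITGB7, a β partner of α4 and αE, fell from 2.40 and 2.50 RPKM in EV to 1.52 and 1.59 in TBX3iso1 and 1.00 and 1.31 in TBX3iso2, and the 3 lines stood apart. Its log2 fold change was -0.62 ± 0.15 (adjusted p = 0.0113) and -1.04 ± 0.15 (adjusted p = 0.00119). The TBX3iso1 value was just past the fold threshold and was not called without the first (-0.65) or the second EV library (-0.60), nor with median-ratio (-0.57) or quantile scaling (-0.41) or a pseudocount of 1 RPKM (-0.43). ITGB2, the β2 subunit of leukocytes, measured 20.6 to 22.0 RPKM in EV and 14.2 to 15.3 in the isoform lines (log2 -0.50 and -0.53, adjusted p = 0.00163 and 0.00129, under 1.5-fold). ITGAE, the αE subunit that binds E-cadherin, was at 2.92 and 2.79 RPKM in EV, 3.00 and 3.67 in TBX3iso1, and 3.63 and 3.95 in TBX3iso2. Every isoform library was above EV, and the log2 fold changes of 0.21 (adjusted p = 0.203) and 0.39 (adjusted p = 0.0338) were under 1.5-fold.

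The 13 genes under the filter were ITGA2B, ITGA8, ITGA9, ITGA11, ITGAD, ITGAL, ITGAM, ITGAX, ITGB3, LAMA1, LAMA2, LAMB4 and LAMC3. The highest value among them was 0.538 RPKM, for LAMA2 in a TBX3iso1 library, and 7 were under 0.1 RPKM in every library. ITGA9 and ITGAD were listed at 0 in 5 of the 6 libraries, ITGA8 in 4 and LAMC3 in 1. All 4 α partners of ITGB2 were in this group, so ITGB2 was the only subunit of its pairs above 0.2 RPKM. When the filter was dropped, limma called ITGAL lower in both isoform lines, ITGAX lower and LAMB4 higher in TBX3iso2, and LAMA2 higher in TBX3iso1, all at levels at or below 0.538 RPKM.

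**Figure D3:**
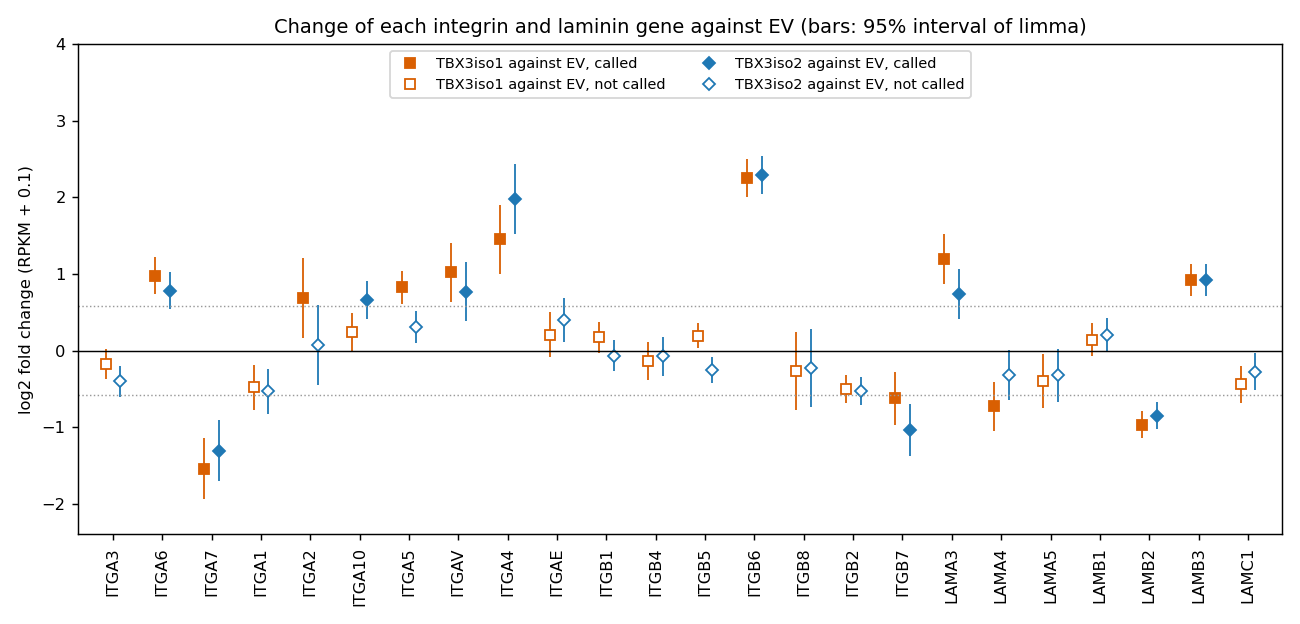
log2 fold change of RPKM + 0.1 against EV for 24 of the genes tested, with 95% intervals from limma (n = 2 libraries per line); filled symbols passed the adjusted p of 0.05 and the 1.5-fold threshold (dotted lines). ITGB6 and ITGA4 lie highest and ITGA7 lowest in both isoform lines, and ITGA5, ITGA2 and LAMA4 are called in TBX3iso1 only, ITGA10 in TBX3iso2 only.

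Between the isoform lines, 0 of the 25 genes were called, where 6.29% of all genes were called (3.47% higher and 2.82% lower in TBX3iso2). Of all genes called, 55.2% were higher in TBX3iso2, and 43.5% with median-ratio and 44.7% with quantile scaling; the count for these 25 was 0 under each. Among all 12805 genes tested, 3946 had an unadjusted limma p under 0.05 and 1891 an adjusted p under 0.05 at any fold change. In the same limma fit, 11 of the 25 had an unadjusted p under 0.05 and 4 an adjusted p under 0.05 with a fold change below 1.5. Among these were ITGA5 (log2 -0.52 ± 0.09, adjusted p = 0.0109) and ITGB5 (-0.45 ± 0.07, adjusted p = 0.00744), lower in TBX3iso2, and ITGA10 (0.43 ± 0.11, adjusted p = 0.0363), higher in TBX3iso2. Of the genes called against EV in 1 isoform line alone, ITGA5 and ITGA10 thus differed between the lines by less than 1.5-fold, while ITGA2 (log2 -0.61, adjusted p = 0.114) and LAMA4 (0.41, adjusted p = 0.0908) did not pass. Without the first TBX3iso2 library, calls lower in TBX3iso2 included ITGA2 (-0.98), LAMA3 (-0.66) and ITGA5 (-0.65), and without the second, ITGB7 (-0.59). The number that rose against EV in TBX3iso2 fell from 8 to 5 without its first library, with ITGA10, ITGAV and LAMA3 no longer called.

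Subunits were then paired, as 24 known integrin pairs and 13 known laminin trimers, and each was given the level of its lowest subunit. These are mRNA levels and say nothing of assembled protein. Which subunit is lowest also depends on the transcript lengths used for RPKM. Of the integrin pairs, 12 had both subunits at a mean of 0.5 RPKM or more in all 3 lines, as had 7 of the laminin trimers. The α4 pairs with β1 and β7 reached that level in the isoform lines only, and α7β1 in EV only. The lowest subunit changed in 1 of the 12 pairs and 2 of the 7 trimers. In αvβ6 it was ITGB6 in EV (6.13 RPKM) and ITGAV in TBX3iso1 (20.1) and TBX3iso2 (17.0). In laminin-311 it was LAMA3 in EV (20.0) and TBX3iso2 (33.7) but LAMC1 in TBX3iso1 (37.7), and in laminin-321 it was LAMA3 in EV and LAMB2 in TBX3iso1 (17.0) and TBX3iso2 (18.4).

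For the epithelial adhesion pair, the lowest subunit rose on both sides. ITGA6, the lower subunit of α6β4, was at 25.7, 50.9 and 44.4 RPKM in EV, TBX3iso1 and TBX3iso2, and LAMA3, the lowest chain of laminin-332, at 20.0, 46.1 and 33.7. For α3β1 the lower subunit was ITGA3, at 161, 142 and 122 RPKM, the highest of all pairs in every line. Laminin-511 was set by LAMC1, at 51.2, 37.7 and 42.3 RPKM. Its lowest chain was thus above that of laminin-332 in EV and in TBX3iso2 and below it in TBX3iso1, a difference for which no test was run. Laminin-521 was set by LAMB2, at 33.2, 17.0 and 18.4 RPKM.

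**Figure D4:**
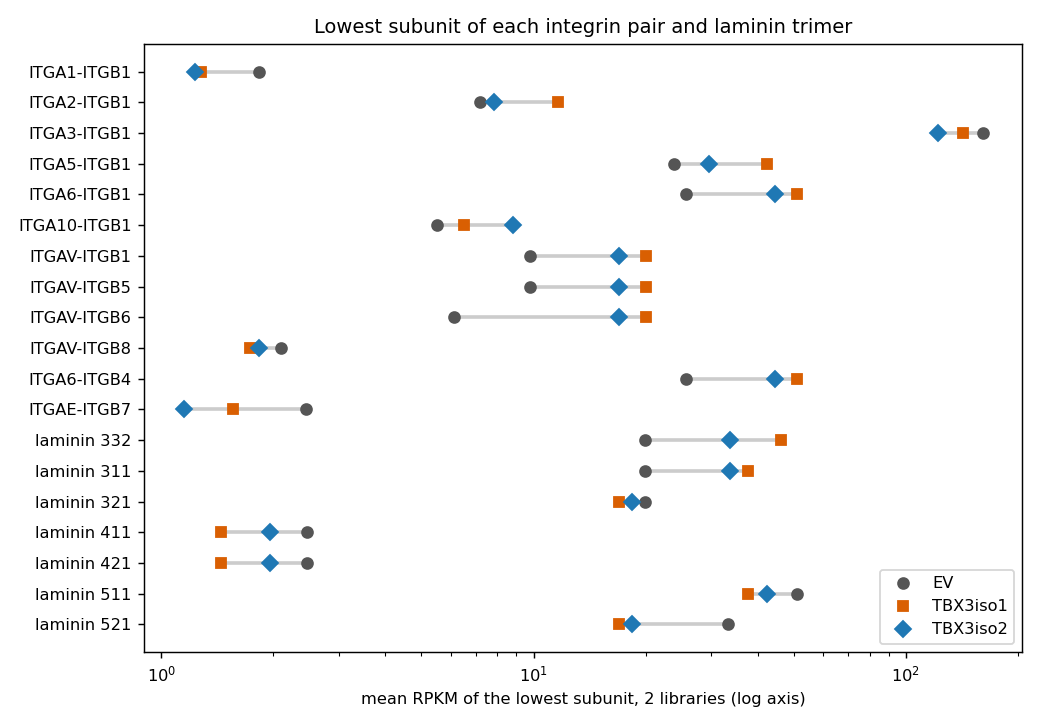
Mean RPKM (log axis, 2 libraries per line, no error shown) of the lowest subunit of the 12 integrin pairs and 7 laminin trimers with every subunit at 0.5 RPKM or more in all lines. The αvβ6 pair moves from 6.13 RPKM in EV to 17.0 and 20.1, and laminin-332 from 20.0 to 33.7 and 46.1, while laminin-511 and laminin-521 lie lower in the isoform lines.

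Promoter sequence is shown for 5 genes. ITGB6, ITGA6 and LAMB2 were called in both isoform lines and hold a T-box half-site in the 250 bases searched. LAMB3 and LAMA3 were also called and hold none there. TBX3 binds DNA through its T-box domain, and binding was not measured in the RNA-Seq data used here. The paper measured it by chromatin immunoprecipitation on promoter arrays. It lists LAMB2 among genes changed in expression and bound by both isoforms at shared sites, with a T-box element. The other genes shown here are not on that list, which leaves out bound genes without an element. Whether the element in LAMB2 is the half-site shown was not tested. RefSeq promoters (GRCh38.p14) were matched for 26 of the 38 genes, and the 250 bases before the start were searched on both strands for the half-site AGGTGT and for the E-box CAGGTG, which the zinc-finger repressors of epithelial genes recognise. Where a gene had several listed starts, only the first was searched, so its other starts may differ. The 2 motifs overlap where they form CAGGTGT. The sequences run 5′ to 3′ on the strand of the gene, and capitals mark the motifs, the half-site reading ACACCT and the E-box CACCTG on the other strand.

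ITGB6: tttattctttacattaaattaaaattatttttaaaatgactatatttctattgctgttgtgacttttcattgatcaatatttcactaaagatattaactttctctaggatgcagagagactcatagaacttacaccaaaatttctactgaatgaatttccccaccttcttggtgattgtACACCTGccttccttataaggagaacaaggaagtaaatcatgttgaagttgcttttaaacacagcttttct

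ITGA6: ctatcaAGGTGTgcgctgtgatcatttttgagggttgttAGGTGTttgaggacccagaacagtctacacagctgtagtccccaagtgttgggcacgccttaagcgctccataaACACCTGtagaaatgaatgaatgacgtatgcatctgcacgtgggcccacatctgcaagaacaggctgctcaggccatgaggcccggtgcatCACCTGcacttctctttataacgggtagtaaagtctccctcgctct

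LAMB2: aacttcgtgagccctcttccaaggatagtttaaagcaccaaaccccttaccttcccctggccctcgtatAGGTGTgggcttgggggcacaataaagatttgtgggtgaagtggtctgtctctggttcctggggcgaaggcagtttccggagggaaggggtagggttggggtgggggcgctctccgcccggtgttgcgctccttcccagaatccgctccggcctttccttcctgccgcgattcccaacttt

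LAMB3: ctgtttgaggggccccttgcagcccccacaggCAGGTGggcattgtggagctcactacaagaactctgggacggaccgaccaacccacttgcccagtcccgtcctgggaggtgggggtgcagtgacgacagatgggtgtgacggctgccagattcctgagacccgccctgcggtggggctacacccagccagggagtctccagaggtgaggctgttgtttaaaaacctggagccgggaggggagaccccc

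LAMA3: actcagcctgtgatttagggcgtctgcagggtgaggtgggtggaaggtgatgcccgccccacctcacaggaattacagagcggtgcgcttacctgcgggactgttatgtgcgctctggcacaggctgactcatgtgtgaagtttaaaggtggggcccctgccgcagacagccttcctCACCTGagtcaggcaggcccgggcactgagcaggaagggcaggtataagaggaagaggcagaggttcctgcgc

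These windows are chr2:160200273-160200522 (minus strand) for ITGB6, chr2:172427086-172427335 (plus) for ITGA6, chr3:49133051-49133300 (minus) for LAMB2, chr1:209652426-209652675 (minus) for LAMB3 and chr18:23872770-23873019 (plus) for LAMA3. The half-site stood 71 bases before the start in ITGB6, where it overlapped an E-box, 3 times in ITGA6, between 244 and 137 bases before it, with an E-box over the nearest, and 181 bases before it in LAMB2. LAMB4 was the only other matched gene with a half-site, so 4 of 26 held one, against 9.57% of all 35116 promoters in the set. An E-box was found in 7 of the 26 (ITGA6, ITGA11, ITGB6, LAMA3, LAMA5, LAMB3 and LAMB4) and in 17.5% of all promoters. ITGB6 and ITGA6 rose, LAMB2 fell, and LAMB3 and LAMA3 rose without a half-site in the window, so a match went with no single direction.

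Partners of these receptors were taken from 3 lists. Of 44 focal adhesion adaptors and kinases in the table, 40 were tested; 2 rose and 3 fell in TBX3iso1, and 3 rose and 3 fell in TBX3iso2, with median log2 fold changes of -0.028 and 0.112. FERMT1, the epithelial kindlin that activates integrins, rose in both (8.15 and 8.10 RPKM in EV, 13.1 and 12.1 in TBX3iso1, 16.5 and 13.5 in TBX3iso2; log2 0.62 and 0.87, limma adjusted p = 0.00278 and 0.000589). LIMS1, which links integrin-linked kinase to actin, rose in TBX3iso1 (0.60), and TNS4 (0.87) and NEDD9 (0.80, limma adjusted p = 0.0417) rose in TBX3iso2. NEDD9 was at 0.356 and 0.372 RPKM in EV, 0.479 and 0.493 in TBX3iso1, and 0.968 and 0.507 in TBX3iso2. It passed the filter through TBX3iso2, which favoured a rise. The TBX3iso2 libraries lay far apart for NEDD9, and the second was close to TBX3iso1. ARHGEF6, a Rac exchange factor, fell in both (-1.66 and -2.24). It was at 1.36 and 1.45 RPKM in EV and at 0.163 to 0.448 in the isoform lines. It thus passed the filter through EV, which favoured a fall. TNS3 (-0.64) and PTK2B (-0.60) fell in TBX3iso1, and FYN (-1.30) and TLN2 (-0.70) in TBX3iso2. In all, 5 and 6 of the 40 (12.5% and 15.0%) were called, where 21.5% and 21.2% of all genes tested were. These counts include ARHGEF6 in both lines and NEDD9 in TBX3iso2.

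Of 26 hemidesmosome and basement membrane partners, 18 were tested; 2 rose and 5 fell in TBX3iso1 and 1 rose and 6 fell in TBX3iso2, with medians of -0.054 and -0.123. The 7 called in each line were 38.9% of the 18, against 21.5% and 21.2% of all genes (7.46% higher and 14.1% lower in TBX3iso1, 8.94% and 12.3% in TBX3iso2). COL7A1, the anchoring fibril collagen that binds laminin-332, rose from 0.969 and 1.09 RPKM in EV to 3.81 and 3.50 in TBX3iso1 and 2.11 and 1.90 in TBX3iso2, with no overlap between lines (log2 1.73 ± 0.13 and 0.90 ± 0.13, limma adjusted p = 5.72e-05 and 0.00108). COL4A1, a chain of basement membrane collagen, rose in TBX3iso1 (1.04). BCAM, a surface receptor for the laminin α5 chain, fell from 13.5 and 12.9 RPKM in EV to 3.33 and 3.14 in TBX3iso1 and 4.67 and 5.10 in TBX3iso2, every isoform library being far below EV (-2.00 ± 0.09 and -1.42 ± 0.09, adjusted p = 8.7e-06 and 3.52e-05). NTN4, a netrin that binds laminin γ1, fell in both lines (-0.80 and -1.01). COL4A5 (-0.69) completed the 3 largest falls in TBX3iso1 and MEGF9 (-1.05) those in TBX3iso2. COL17A1, the hemidesmosome collagen, was under the filter.

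Of 33 other integrin ligands, 20 were tested; 6 rose and 6 fell in TBX3iso1 and 6 rose and 5 fell in TBX3iso2, with medians of -0.131 and 0.022. These were 60.0% and 55.0% of the 20, against 21.5% and 21.2% of all genes. COL6A2, a collagen VI chain, rose from 0.505 and 0.330 RPKM in EV to 5.95 and 5.15 in TBX3iso1 and 1.90 and 2.22 in TBX3iso2, again with no overlap (log2 3.47 ± 0.19 and 2.08 ± 0.19, limma adjusted p = 1.6e-05 and 0.000144). With an EV mean of 0.418 RPKM, it passed the filter through the isoform lines, which favoured a rise. COL6A1 rose in TBX3iso1 (1.31) and was not called in TBX3iso2 (0.035), and ICAM3, a leukocyte integrin ligand, rose in both (0.86 and 0.91). CYR61, a ligand of αv integrins, rose in TBX3iso2 (0.87). The fibrinogen chains FGG and FGB fell most, FGG from 30.5 and 31.5 RPKM in EV to 0.240 and 0.420 in TBX3iso1 and 1.05 and 0.740 in TBX3iso2 (log2 -6.21 and -4.98) and FGB with log2 values of -4.82 and -3.93. FGB was at 3.39 and 3.63 RPKM in EV and at 0.0270 to 0.154 in the isoform lines. It passed the filter through EV, which favoured a fall. FGB and COL6A2 are both among the called genes counted above. COL5A1 fell by 2.15 and 1.73 on the log2 scale. TNC, an αvβ6 ligand, was at 27.1 and 23.7 RPKM in EV, 21.2 and 16.5 in TBX3iso1, and 35.2 and 26.0 in TBX3iso2, not called against EV in either line. Of the TGF-β and fibronectin genes on the list, TGFB3 fell in both lines (log2 -0.89 and -0.76, limma adjusted p = 0.000592 and 0.00118). TGFB1 was lower in both by less than 1.5-fold (-0.54 and -0.39), and FN1 was not called in either (0.55 and 0.009). In the comparison of the isoform lines, 2 of 40 focal adhesion genes, 3 of 18 hemidesmosome and basement membrane genes and 9 of 20 ligands were called, where 6.29% of all genes were. Among the ligands called was TNC, higher in TBX3iso2 than in TBX3iso1 (log2 0.69, limma adjusted p = 0.0319). Another was NPNT, a ligand of α8β1, at 2.99 and 2.94 RPKM in EV, 0.818 and 0.767 in TBX3iso1 and 3.95 and 3.26 in TBX3iso2. TNC, NPNT, TGFB1, TGFB3 and FN1 were chosen after their values were seen.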

How the data were processed

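The authors prepared stranded mRNA libraries, sequenced 51-base paired-end reads, used TopHat in Galaxy for alignment to hg19 (at most 10 alignments per read) and deposited RPKM values made in Partek Genomics Suite. Software versions, the gene annotation and the use of strand in counting are not given in the sources used here, so reads from antisense genes cannot be told apart. From the deposited RPKM, 0.1 was added before log2; genes that averaged 0.5 RPKM or more were fitted in limma 3.58.1 (R 4.3.3) with 1 mean per line over all 6 libraries, a trended empirical Bayes step and p-values adjusted by Benjamini-Hochberg over all 12805 genes. When tested on simulated data, the fit missed the share of changed genes first asked of it, the genes missed having a wider median spread between replicates, and the requirement was then lowered. With 2 libraries per line, an exact permutation test cannot pass 0.05. Differences and SEs are on the log2 scale. RPKM gives no counting error, so the spread between replicates (SD of the log2 difference 0.182, 0.242 and 0.273 in EV, TBX3iso1 and TBX3iso2) was used.

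Values in every library are given for genes called in at least 1 of the 3 comparisons and for the 10 highest in EV; of each partner list, the 3 largest rises and falls against EV are named. The members, lists and tests were chosen with earlier results of these data known. Gene positions are those of GENCODE v44 lifted to GRCh37, and promoters those of RefSeq. Alternatives were pseudocounts of 1 and 0.01, no filter, a filter at 2 RPKM, median-ratio and quantile scaling, a replicate block, no trend, only the lines compared, and leaving out each library. Some results that meet these rules are not reported here, although the counts include them.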

Additional observations from a re-analysis of the deposited data

How the results depend on the processing

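No call of an integrin or laminin gene against EV changed direction under any alternative run. With a pseudocount of 1 RPKM, 2 integrin and laminin genes fell in TBX3iso1, 2 focal adhesion genes and 4 hemidesmosome and basement membrane genes were called there, 3 of the latter list in TBX3iso2, and 1 focal adhesion gene between the isoform lines. That last count was also 1 with no filter, a filter at 2 RPKM, median-ratio or quantile scaling, no trend and only the lines compared. Without a filter, 5 genes fell in TBX3iso2. At 2 RPKM, where 19 genes were tested, 1 fell in each isoform line and 2 focal adhesion genes were called in TBX3iso2. Quantile normalization left 2 falls in TBX3iso1. Over all 12805 genes, falls in TBX3iso1 numbered 1802 in the main run, 1158 with a pseudocount of 1 RPKM and 1313 with quantile scaling. With the filter at 2 RPKM, 1158 of all 10313 genes tested fell in TBX3iso1 and 1026 in TBX3iso2. Without a filter, 2066 of all 20824 genes fell in TBX3iso2, against 1575 of 12805 in the main run. Between the isoform lines, where none of these genes was called, ITGB6 was at -0.015 with median-ratio and -0.012 with quantile scaling, and LAMB3 at -0.050 with median-ratio scaling.

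With each library left out in turn, 5 to 8 genes rose in TBX3iso2, 0 to 4 were lower in TBX3iso2 than in TBX3iso1, 3 to 5 focal adhesion genes were called in TBX3iso1 and 1 to 3 between the isoform lines. Differences between the isoform lines then spanned -0.049 to 0.17 for ITGB4, -0.079 to 0.16 for ITGB6, -0.16 to 0.30 for LAMA5, -0.034 to 0.15 for LAMB1 and -0.072 to 0.081 for LAMB3, and ITGA2 in TBX3iso2 against EV spanned -0.30 to 0.45. The replicate block added 1 call, ITGA2 lower in TBX3iso2 than in TBX3iso1 (-0.61), and changed no other. Same-numbered libraries deviated together with correlations of 0.22, 0.114 and 0.499, but the labels do not say what the number marks, and with 2 numbers they were not treated as pairs. Depth per gene is unknown.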
